A study of Mus musculus with 12 samples.

Results

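Piezo and transient receptor potential (TRP) channels that open to membrane stretch, or that act downstream of it, were followed as 9 genes in left atria (LA) of mice with and without Notch activation in cardiomyocytes. The members were taken by name from the 54658 gene names of the counted transcriptome: Piezo1, Piezo2, Trpc1, Trpc6, Trpm4, Trpm7, Trpv2, Trpv4 and Pkd2. They were chosen with earlier results of these data known. The 6 iNICD mice carried αMHC-rtTA and TetO-NICD, and the 6 littermate controls carried αMHC-rtTA alone. Both groups ate doxycycline chow for 3 weeks and were harvested without washout, and both were on a mixed background, with an age of 2 to 3 months given for the mice. The αMHC promoter restricts the transactivator to cardiomyocytes, so NICD, the intracellular domain of Notch that enters the nucleus, is switched on by doxycycline in those cells and not in the fibroblasts, endothelium or leukocytes of the same atrium. Each library was made from the LA of 1 mouse. By the labels, 2 of the 6 controls and 3 of the 6 iNICD mice were males. RNA was taken from whole tissue, so fewer cells of a type and less RNA per cell cannot be told apart.

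Piezo proteins are large trimeric cation channels that open directly when the membrane is stretched. The TRP proteins are tetrameric cation channels that answer to receptor signaling, calcium, temperature, osmotic stress or stretch, and several of them pass calcium into the cell, where it can bind calmodulin and activate calcineurin and CaMKII. In the atrium, stretch-gated and calcium-gated cation currents are known to depolarize the membrane and to feed into hypertrophy and arrhythmia.

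The libraries held 21432632 to 27182038 counts each. Levels are given as normalized CPM, the counts of a gene scaled to a common library total after TMM correction, a scaling that evens out differences in composition between libraries. The transgene was visible through Notch1, whose reads include those of NICD: the level was 118 ± 9.99 normalized CPM (SD, n = 6) in controls and 3401 ± 441 in iNICD. The cardiomyocyte gene Myh6 was present in every library at 30450 or more normalized CPM, and the ventricular factor Irx4 had no count in any library. Of the other listed ventricular markers, Myl2 ran from 0.231 to 3.21 normalized CPM over the libraries and Myh7 from 13.1 to 2225. All 4 atrial cardiomyocyte markers were called lower in iNICD, against 1.34% of all tested genes, with log2 fold changes of -2.33 to -0.54 and, without control replicate 5, of -2.25 to -0.58 with 4 again called. Their summed level was 34160 to 43930 normalized CPM in controls and 9250 to 16570 in iNICD. Control replicate 5 stood apart from the other libraries. A gap of 2-fold or more to the remaining libraries of its own group was seen there for 13.2% of tested genes, and for 1.38% to 3.12% in each of the other 11 libraries. Fold changes between the genotypes are therefore given with and without it.

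The DNA just upstream of 2 of the genes, Trpc1 and Trpm7, is shown first. Trpc1 had the smallest adjusted p of the members, and Trpm7 had the highest level of them in iNICD atria. Of the member windows searched, only those of these 2 genes held a motif of the Notch pathway among the motifs searched. No window of Piezo2 or Trpm4 was searched, so a motif upstream of these 2 members was not tested. For the other 7 of the 9 members, RefSeq windows of 250 bases before the transcript start on GRCm38.p6 were used, 9 windows in all. Each was searched on both strands for TGGGAA, the core bound by the Notch effector RBPJ, and for CACGTG, an E-box bound by HES and HEY repressors. The motifs do not overlap each other. Capitals mark the match, and both sequences run 5′ to 3′ on the strand of the gene. The Trpc1 window is chr9:95750349-95750598, minus strand, with the RBPJ core, read here as its complement on the other strand, beginning 153 bases before the start. The Trpm7 window is chr2:126876262-126876511, minus strand, with the E-box beginning 25 bases before the start. Of 32851 mouse windows of this length, 21.6% held the RBPJ core and 6.02% held the E-box. A match is a run of letters and was not measured as a binding site.
Trpc1: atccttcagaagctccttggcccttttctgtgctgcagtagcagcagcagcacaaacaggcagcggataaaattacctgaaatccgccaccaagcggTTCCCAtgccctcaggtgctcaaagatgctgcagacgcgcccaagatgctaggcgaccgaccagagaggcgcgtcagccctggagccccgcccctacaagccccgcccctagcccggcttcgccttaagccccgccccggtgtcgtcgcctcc
Trpm7: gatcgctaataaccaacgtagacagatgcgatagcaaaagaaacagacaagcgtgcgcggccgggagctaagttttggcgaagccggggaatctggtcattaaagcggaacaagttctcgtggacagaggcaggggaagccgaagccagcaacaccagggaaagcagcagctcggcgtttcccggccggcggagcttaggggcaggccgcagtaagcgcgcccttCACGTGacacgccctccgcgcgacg

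No member passed the threshold in the comparison of iNICD with control LA. Of 13541 genes tested, 2.78% were called higher, 1.34% lower and 4.12% in either direction by the edgeR quasi-likelihood test with Benjamini-Hochberg adjustment at 0.05, to which the adjusted p values below belong unless another test is named. Of the 9 members, 8 had enough reads to be tested and 1, Trpc6, did not. Among the 8, 0 were called higher and 0 lower. An unadjusted p below 0.05 was obtained for 2 of the 8, Piezo1 and Trpc1, and for 17.4% of all tested genes. The edgeR exact test called 0 members and DESeq2 called 1, Trpc1, as higher. The median log2 fold change of the tested members was -0.09, with 4 positive and 4 negative, and that of all tested genes was -0.01. No member had groups free of overlap, which held for 3.83% of all tested genes.

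**Figure D1:**
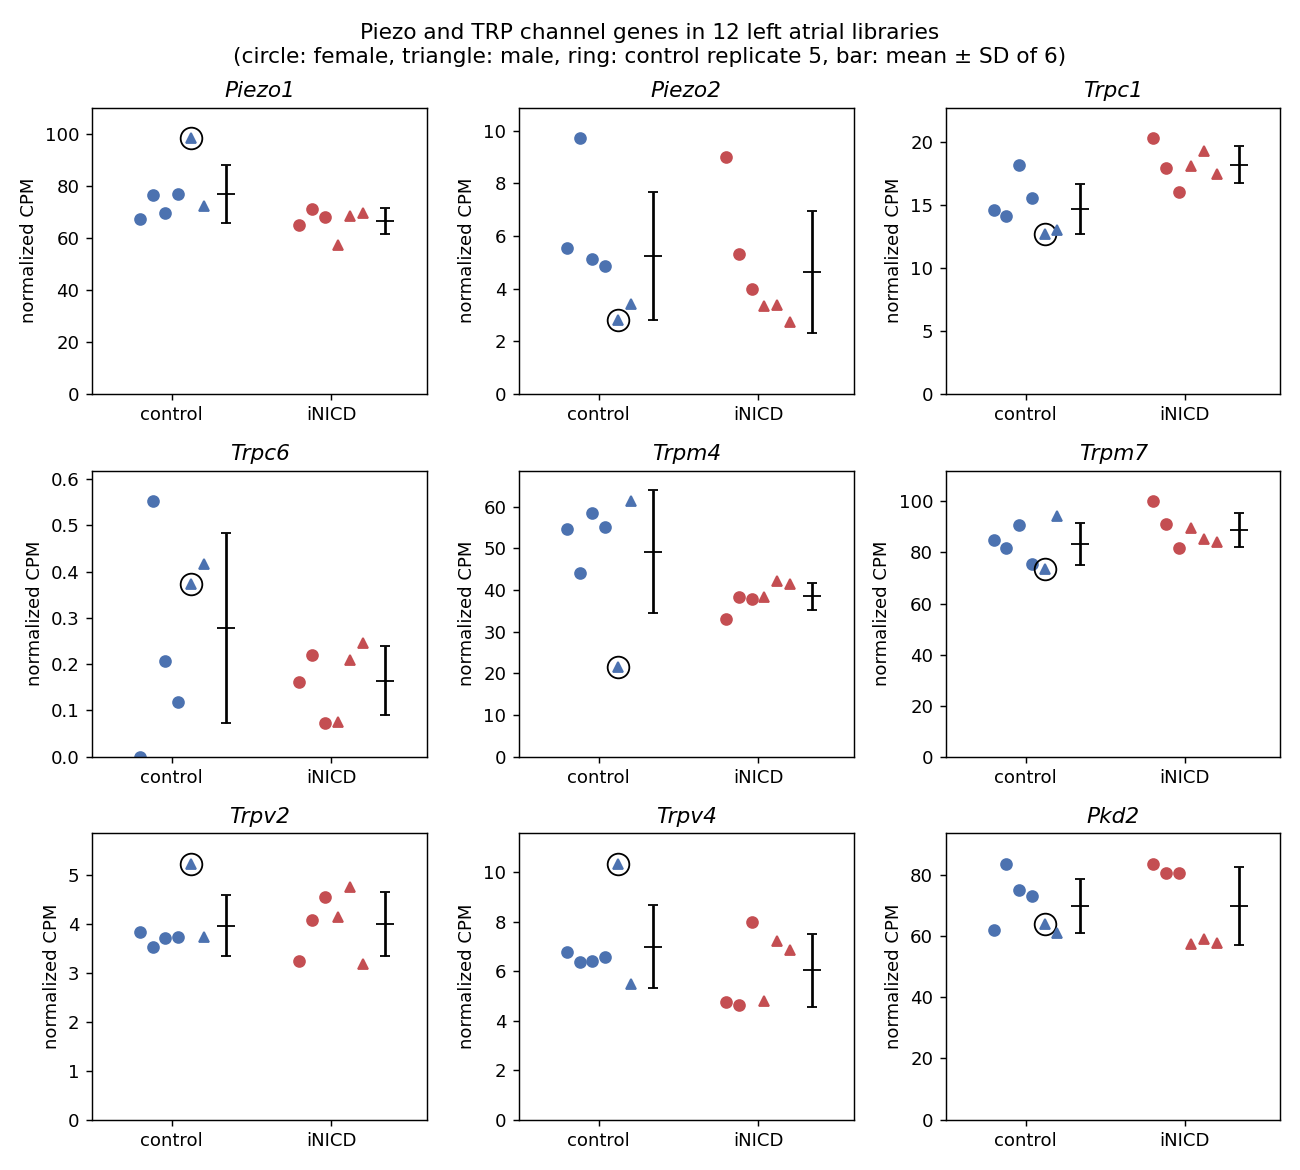
Normalized CPM of the 9 channel genes in each of 12 LA libraries, 1 panel per gene on its own linear axis from 0, with controls in blue, iNICD in red and the mean ± SD of 6 libraries beside each group. The ringed point, control replicate 5, is the highest control for Piezo1, Trpv2 and Trpv4 and the lowest for Piezo2, Trpc1, Trpm4 and Trpm7.

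The members covered a wide range of levels, which are compared here per kilobase of the deposited gene length. In control LA, Piezo1 was at 7.75 ± 1.13 normalized CPM per kilobase (SD, n = 6), Trpm7 at 7.38 ± 0.726 and Pkd2 at 6.87 ± 0.873. The ranges of neighbours overlapped among these 3, and Piezo1 was above Trpm7 in 3 of 6 control libraries, so their order is not settled by these data. Trpm4 followed at 4.54 ± 1.36, below Pkd2 in 6 of 6 controls and with no overlap of ranges. Trpc1 was at 1.83 ± 0.251 and Trpv4 at 1.72 ± 0.415, with overlapping ranges. Trpc1 was above Trpv4 in 5 of 6 controls. The ranges of Trpm4 and Trpc1 met only through control replicate 5. Trpv2 was at 0.885 ± 0.140, Piezo2 at 0.360 ± 0.167 and Trpc6 at 0.0548 ± 0.0406, each below its neighbour in every control. Against all tested genes, the control levels per kilobase of Piezo1, Trpm7 and Pkd2 stood at percentiles 63.2, 61.8 and 59.6. Piezo2 stood at percentile 4.20. Trpc6 was essentially unexpressed.

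**Figure D2:**
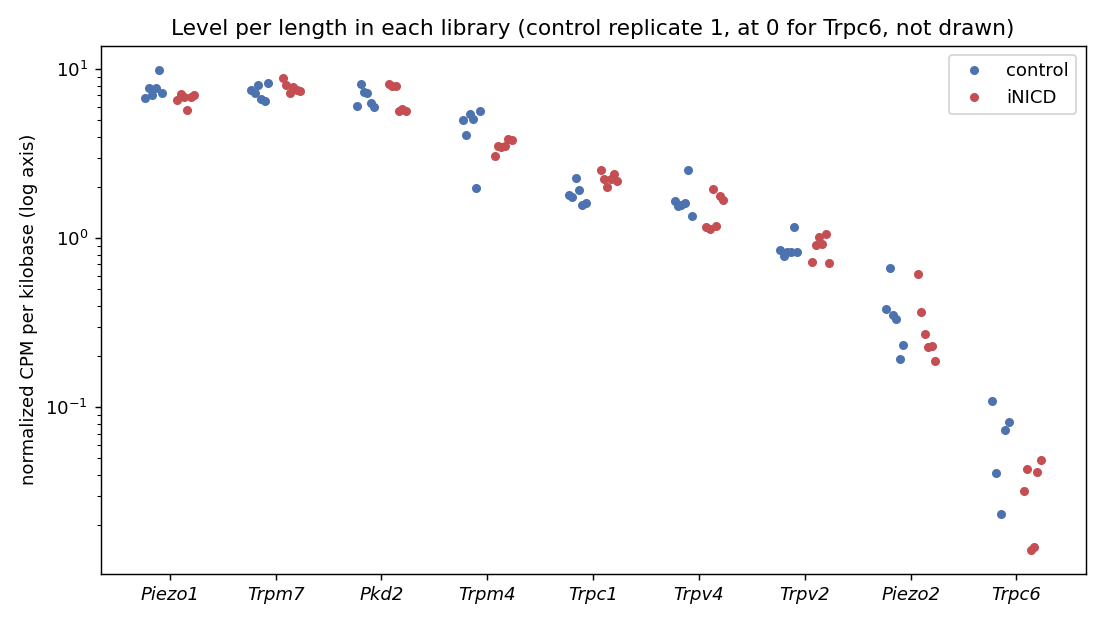
Level of the 9 channel genes as normalized CPM per kilobase on a log axis, ordered by the control mean, with 1 point per library. Piezo1, Trpm7 and Pkd2 form the upper 3 with overlapping ranges in controls, and Trpc6 lies lowest, below Piezo2 in all 12 libraries.

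In iNICD LA the same measure placed Trpm7 at 7.84 ± 0.582 normalized CPM per kilobase, Pkd2 at 6.87 ± 1.27 and Piezo1 at 6.71 ± 0.504. The ranges again overlapped between neighbours, with Trpm7 above Pkd2 in 5 of 6 libraries and Pkd2 above Piezo1 in 3 of 6. From Trpm4, at 3.55 ± 0.294, down to Trpc6, at 0.0324 ± 0.0148, no neighbours overlapped in the iNICD group.

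Piezo1, the main stretch-gated channel of endothelium that is also present in cardiomyocytes and fibroblasts, had normalized CPM of 67.5 at the lowest, 74.5 at the median and 98.5 at the highest in controls. In iNICD the lowest was 57.4, the median 68.3 and the highest 71.3. The groups overlapped, with 2 iNICD libraries below every control and control replicate 5 far above the rest. Its log2 fold change was -0.21 (SE 0.09, 95% interval -0.40 to -0.01, adjusted p = 0.264). Leaving out control replicate 5 gave -0.12 (SE 0.06, interval -0.26 to 0.02, adjusted p = 0.332). The summed level of 6 endothelial markers was 1033 normalized CPM in that library, 736 to 879 in the other controls and 680 to 814 in iNICD. The markers did not move together there: Pecam1, Emcn and Cdh5 were above every other control, Kdr and Tie1 were below every other control, and Egfl7 was within their range. Between the genotypes 0 of the 6 were called. Their part in the Piezo1 values was not tested. The exons of Piezo1 overlap those of Ctu2 on the opposite strand over 2441 bases, 24.6% of the exonic length. The sources used here do not say whether reads were counted by strand, so the reads of both genes in that stretch cannot be told apart.

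Piezo2, the touch channel of sensory neurons, was low and variable. Controls had 2.80 normalized CPM at the lowest, 4.98 at the median and 9.72 at the highest, and iNICD had 2.74, 3.67 and 9.0. The highest library of each group was a female, control replicate 2 and iNICD replicate 1, and the groups overlapped nearly throughout. A log2 fold change of -0.18 was obtained with an interval from -0.91 to 0.54 (SE 0.34, adjusted p = 0.820), so neither a fall to 0.531-fold nor a rise to 1.46-fold lies outside it. Leaving out control replicate 5, the lowest control, gave -0.31 (SE 0.33, interval -1.03 to 0.40, adjusted p = 0.682). The deposited length of Piezo2 was 14566 bases, shorter than the 17162 bases of its annotated exons in GENCODE M21. For the other 8 members the lengths were equal.

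Trpc1, a subunit that assembles with other TRPC proteins in receptor-operated and store-operated calcium entry, came nearest to the threshold. Controls 1 to 6 had 14.6, 14.1, 18.2, 15.5, 12.7 and 13.02 normalized CPM. The iNICD libraries 1 to 6 had 20.3, 17.9, 16.1, 18.1, 19.3 and 17.4. All iNICD libraries were above 5 of the 6 controls, and only control replicate 3 reached into their range. The mean was 14.7 ± 2.02 (SD, n = 6) in controls and 18.2 ± 1.48 in iNICD, and the log2 fold change was 0.31 (SE 0.09, interval 0.10 to 0.51, adjusted p = 0.0961), which did not pass. DESeq2 gave 0.30 with an adjusted p of 0.0418. Without control replicate 3 the quasi-likelihood test gave 0.38 (SE 0.08, adjusted p = 0.0298). Leaving out the only control within the iNICD range separates the groups by itself, so that pass is no added evidence. Of the 12 quasi-likelihood fits that each left out 1 library, 1 passed, and the highest adjusted p was 0.2. The same test gave 0.27 without control replicate 5 (SE 0.09, adjusted p = 0.122).

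Trpc6, a diacylglycerol-gated subunit linked to calcineurin and NFAT signaling in hypertrophy, had 0 to 15 reads per library. No library reached 1 CPM. Controls had 0 normalized CPM at the lowest, 0.290 at the median and 0.552 at the highest, and iNICD had 0.0729, 0.185 and 0.246. Control replicate 1 had no read, which allows up to 0.124 normalized CPM at a limit of 3 counts and covers counting error only. The groups overlapped, and an exact two-sided permutation test gave p = 0.232. With the expression filter removed, the log2 fold change was -0.76 with an interval from -2.02 to 0.50 (adjusted p = 0.553), so a difference was not detectable at this depth.

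Trpm4, the calcium-activated channel that passes monovalent cations and carries no calcium itself, was the only member called once control replicate 5 was left out. Controls 1 to 6 had 54.6, 44.0, 58.5, 55.1, 21.5 and 61.3 normalized CPM. The iNICD libraries 1 to 6 had 33.1, 38.3, 37.7, 38.2, 42.1 and 41.3. The fifth control was the lowest of all 12 libraries, and the other 5 controls were each above every iNICD library. Over all 12 libraries the log2 fold change was -0.36 (SE 0.20, interval -0.78 to 0.07, adjusted p = 0.375), and an exact two-sided permutation test of the normalized CPM gave p = 0.102. Without control replicate 5 it was -0.51 (SE 0.09, interval -0.70 to -0.32, adjusted p = 0.0043), or 29.7% lower.

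In that comparison 1 of the 8 tested members, Trpm4, was called lower and 0 were called higher, against 2.25% and 3.66% of all tested genes. With the 1 overlapping control left out, the groups of Trpm4 did not overlap, as held for 5.41% of tested genes. Without control replicate 5, Trpm4 was also called by DESeq2 (log2 fold change -0.51, adjusted p = 4.49e-06), by the edgeR exact test (-0.51, adjusted p = 3.7e-05), with sex in the fit (-0.56, adjusted p = 0.00202) and with scaling by total count alone (-0.52, adjusted p = 0.00306). In the 7 female libraries, which leave that library out, the log2 fold change was -0.54 (SE 0.11, adjusted p = 0.0451). In the 5 male libraries, whose 2 controls were at 21.5 and 61.3, it was -0.04 (SE 0.42, adjusted p = 0.981). The difference in the change between the sexes was 0.51 on the log2 scale with an interval from -0.39 to 1.42 (adjusted p = 0.916). The call thus rests on leaving out 1 library that was singled out after its values were seen. The summed level of 6 cardiomyocyte markers was 71530 normalized CPM in that library, 57000 to 63010 in the other controls and 50710 to 59100 in iNICD, where 1 of the 6, Tnnt2, was called lower. In that library 3 of the 6 were above every other control, led by Actc1 at 21890 against 7469 to 15110, while Pln, at 380 against 627 to 1310, was below every other control and Myh6 and Tnnt2 were within the range. Their part in the Trpm4 values was not tested.

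**Figure D3:**
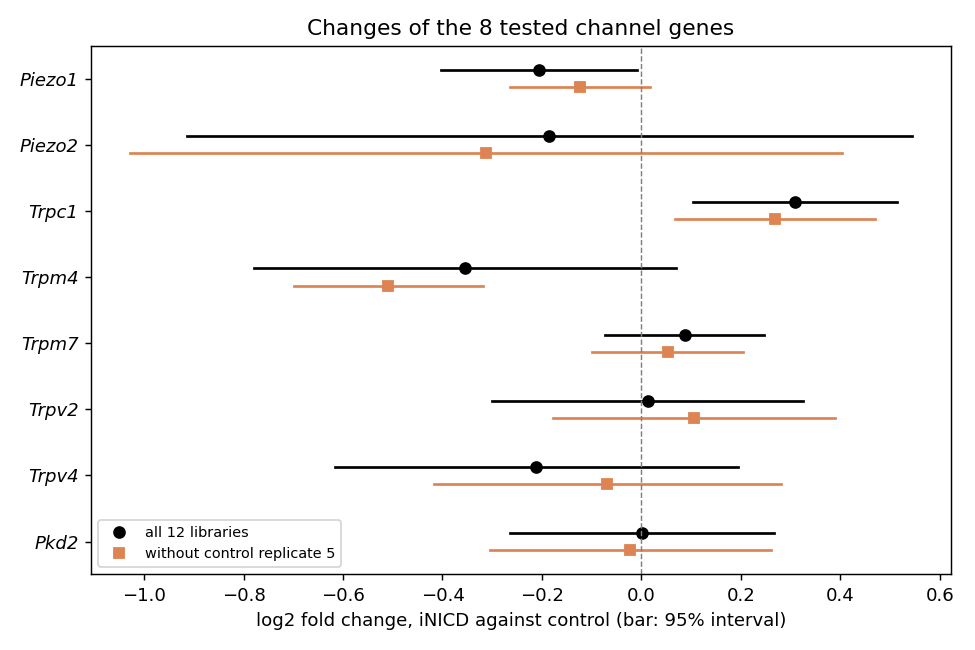
Log2 fold change of the 8 tested channel genes, iNICD against control, with 95% intervals, over all 12 libraries (black circles) and without control replicate 5 (orange squares). The Trpm4 interval runs from -0.78 to 0.07 with that library and from -0.70 to -0.32 without it, and the intervals of Piezo2, Trpm7, Trpv2, Trpv4 and Pkd2 include 0 both ways.

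Trpm7, a channel for magnesium, zinc and calcium fused to a kinase, had the lowest coefficient of variation of the members over all 12 libraries, 9.84% in controls and 7.42% in iNICD. In controls this did not hold without control replicate 5, where Trpv2 was 3.715 ± 0.112 normalized CPM (SD, n = 5) and Trpm7 85.5 ± 7.44. For Trpm7, controls had 73.7 normalized CPM at the lowest, 83.4 at the median and 94.4 at the highest, and iNICD had 82.0, 87.4 and 100.1. The groups overlapped, with 1 iNICD library above every control. For iNICD against control the log2 fold change was 0.09 (SE 0.07, interval -0.07 to 0.25, adjusted p = 0.583), which as a fold runs from 0.950 to 1.19. It was 0.05 without control replicate 5 (SE 0.07, adjusted p = 0.755).

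Trpv2, a channel known in cardiomyocytes for stretch-linked calcium entry and also present in macrophages, was measured from 78 to 125 reads per library. Controls had 3.54 normalized CPM at the lowest, 3.74 at the median and 5.23 at the highest, and iNICD had 3.19, 4.12 and 4.75. The other 5 controls lay within 3.54 to 3.84, while iNICD libraries fell on both sides of them. Its log2 fold change was 0.01 (SE 0.14, interval -0.30 to 0.33, adjusted p = 0.977) and without control replicate 5 it was 0.11 (SE 0.13, adjusted p = 0.734). Summed leukocyte markers were 216 to 278 normalized CPM in controls and 210 to 325 in iNICD, and 0 of the 6 were called.

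Trpv4, an osmosensitive and stretch-sensitive calcium channel of endothelium and fibroblasts, had 5.50 normalized CPM at the lowest, 6.49 at the median and 10.3 at the highest in controls. In iNICD the lowest was 4.62, the median 5.82 and the highest 7.98. The iNICD libraries fell into 3 below every control and 3 above the range of the other 5 controls, 5.50 to 6.77, though below control replicate 5. The log2 fold change was -0.21 (SE 0.19, interval -0.62 to 0.19, adjusted p = 0.596), and without control replicate 5 it was -0.07 (SE 0.16, adjusted p = 0.873). The endothelial markers given beside Piezo1 were mixed in control replicate 5, with Pecam1 at 402 and Emcn at 171 normalized CPM, the highest of the 12 libraries, and Tie1 at 86.0, the lowest. Their part in the high Trpv4 value there was not tested.

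Pkd2, polycystin-2, a calcium-permeable TRP-family channel of the endoplasmic reticulum and primary cilium, had nearly the same mean in both groups. Controls averaged 69.8 ± 8.88 normalized CPM (SD, n = 6) with 61.1 at the lowest, 68.7 at the median and 83.4 at the highest. The iNICD libraries averaged 69.9 ± 12.9, with 57.6, 69.8 and 83.6. The log2 fold change was 0.00 (SE 0.12, interval -0.26 to 0.27, adjusted p = 0.997), which as a fold runs from 0.833 to 1.20. It was -0.02 without control replicate 5 (SE 0.13, adjusted p = 0.952).

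Pkd2 was also described by sex, after its values were seen. The 3 female iNICD libraries had 80.5 to 83.6 normalized CPM and the 3 males 57.6 to 59.2, without overlap, as held for 20.5% of all tested genes within iNICD. In controls the 4 females had 62.0 to 83.4 and the 2 males 61.1 to 64.1, so that the sexes overlapped. With genotype in the fit, the log2 difference of males from females was -0.37 (SE 0.08, interval -0.53 to -0.20, adjusted p = 0.0837), which did not pass, and without control replicate 5 it was -0.41 (SE 0.08, adjusted p = 0.0621). Piezo2 ran the same way, with 3.97 to 9.72 normalized CPM in the 7 females and 2.74 to 3.42 in the 5 males. Its ranges did not overlap between the sexes, as held for 1.38% of all tested genes, a pattern noticed after its values were seen, and its log2 difference of males from females was -0.98 (SE 0.24, interval -1.50 to -0.46, adjusted p = 0.118). Of the tested members 0 were called for sex, against 0.288% of all tested genes, 39 in number. For the interaction of sex with genotype the quasi-likelihood test called 0% of tested genes, with 501 at an unadjusted p below 0.05, and 0 members. The largest interaction of a member in log2 size was the 0.51 of Trpm4, and DESeq2 and the exact test were not run for the sex terms. By the titles, the females of both groups carry the lower replicate numbers, so sex and title number cannot be told apart. The descriptions exchange the numbers of control replicates 4 and 5.

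Most other genes of the families were below the expression filter in LA. Of 26 further TRP, mucolipin and polycystin genes, 5 were tested and 0 were called, with 0 at an unadjusted p below 0.05, against 4.12% and 17.4% of all tested genes. The exact test and DESeq2 also called 0. Trpc2 and Trpc5 had no read in any of the 12 libraries, which together allows up to 0.0102 normalized CPM for each. Pkd1, polycystin-1, the partner of polycystin-2, was the most abundant at 185 ± 19.0 normalized CPM (SD, n = 6) in controls and 180 ± 11.1 in iNICD, a log2 fold change of -0.04 (SE 0.07, adjusted p = 0.819). Mcoln1, the lysosomal calcium release channel, was 37.3 ± 3.77 and 34.2 ± 2.92 (log2 fold change -0.13, SE 0.08, adjusted p = 0.446). Pkdrej, a polycystin of the sperm, had a log2 fold change of -0.06 (SE 0.24, adjusted p = 0.921). The median log2 fold change of the 5 was -0.06. Without control replicate 5 the median was -0.17 and 0 of the 5 were called, with log2 fold changes of 0.01 for Pkd1 (adjusted p = 0.928), -0.17 for Mcoln1 (adjusted p = 0.205) and -0.23 for Pkdrej (adjusted p = 0.435).

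Among 27 other mechanically gated channels and channel partners, 20 were tested and 0 were called, against 4.12% of all tested genes, with 6 of the 20 at an unadjusted p below 0.05, against 17.4%. DESeq2 called 1 of them and the exact test 0. Their median log2 fold change was -0.03. Cav1, the caveolar scaffold to which TRPC1 and other channels bind, was 531 ± 36.9 normalized CPM in controls and 534 ± 33.5 in iNICD, a log2 fold change of 0.01 (SE 0.07, adjusted p = 0.968). Slc41a1, a magnesium exporter, was 206 ± 67.2 and 262 ± 36.1 (log2 fold change 0.35, SE 0.21, adjusted p = 0.420). Homer1, a scaffold of TRPC channels, was 127 ± 16.6 and 117 ± 11.9 (log2 fold change -0.12, SE 0.09, adjusted p = 0.537), and Tmem63b, an osmosensitive channel, had a log2 fold change of 0.22 (SE 0.10, adjusted p = 0.304). Once control replicate 5 was left out, the log2 fold change was 0.01 for Cav1 (adjusted p = 0.964), 0.20 for Slc41a1 (adjusted p = 0.464), -0.07 for Homer1 (adjusted p = 0.739) and 0.21 for Tmem63b (adjusted p = 0.336). In that fit 2 of the 20 were called lower and 0 higher, against 2.25% and 3.66% of all tested genes. These were Cnnm2, a magnesium transport protein (log2 fold change -0.62, SE 0.14, adjusted p = 0.0216), and Orai3, a pore subunit of store-operated calcium entry (-0.37, SE 0.09, adjusted p = 0.0338). Over all 12 libraries the log2 fold change was -0.49 for Cnnm2 (SE 0.20, adjusted p = 0.218) and -0.32 for Orai3 (SE 0.10, adjusted p = 0.0983). Both genes were named after their values were seen.

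The calcium sensors and effectors listed downstream of these channels held 1 called gene of 18 tested, against 4.12% of all tested genes, and 4 of the 18 at an unadjusted p below 0.05, against 17.4%. Their median log2 fold change was 0.01. Nfatc2, a calcineurin-dependent transcription factor, was higher in iNICD. Its controls had 20.9 normalized CPM at the lowest, 26.7 at the median and 35.4 at the highest, and iNICD had 35, 41.0 and 62.7, so that 5 of 6 iNICD libraries were above every control. The log2 fold change was 0.65 (SE 0.16, interval 0.31 to 0.99, adjusted p = 0.036). Without control replicate 5 it was 0.58 (SE 0.15, adjusted p = 0.0417), and Calm3, a calmodulin gene (0.40, SE 0.10, adjusted p = 0.0276), and Camk2g, a CaMKII subunit (0.27, SE 0.07, adjusted p = 0.0454), were then called higher as well, which made 3 of 18 higher and 0 lower, against 3.66% and 2.25% of all tested genes. The call of Nfatc2 was lost in 6 of the 12 fits that left out 1 library, those without control replicate 1, 3 or 4 or iNICD replicate 1, 4 or 6, and also with sex in the fit (adjusted p = 0.0511), in females alone (0.102), in males alone (0.775), with sex in the fit and without control replicate 5 (0.0661) and with the replicate number as a block (0.0659 by title and 0.112 by description number). Its log2 fold change stayed between 0.50 and 0.76 over the 29 alternatives. Over all 12 libraries Calm3 had a log2 fold change of 0.31 (adjusted p = 0.172) and Camk2g 0.26 (adjusted p = 0.0549).

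Other abundant genes of that list did not pass. Rcan2, a calcineurin inhibitor, was 584 ± 47.8 normalized CPM in controls and 562 ± 30.7 in iNICD (log2 fold change -0.05, SE 0.07, adjusted p = 0.714). Camk2d, the main cardiac CaMKII subunit, had a log2 fold change of 0.16 (SE 0.08, adjusted p = 0.335). Without control replicate 5 the values were -0.01 for Rcan2 (adjusted p = 0.945) and 0.22 for Camk2d (adjusted p = 0.11). Rcan1, a calcineurin inhibitor whose own transcription NFAT drives, was named after its values were seen because control replicate 5 was far from the rest. That library had 573 normalized CPM, the other 5 controls had 62.0 at the lowest, 87.5 at the median and 142 at the highest, and iNICD ranged from 50.7 to 74.0. Of those 5 controls, 4 were above every iNICD library. Its log2 fold change was -1.50 (SE 0.49, adjusted p = 0.122) with that library and -0.61 (SE 0.18, adjusted p = 0.0693) without it.

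**Figure D4:**
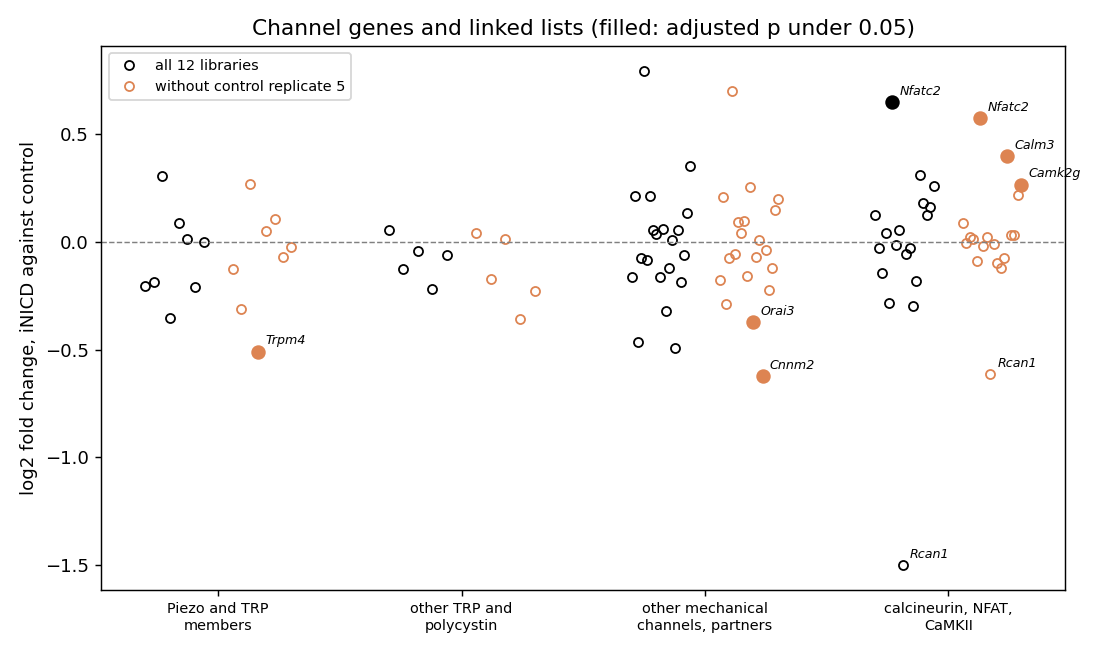
Log2 fold change, iNICD against control, of each tested gene among the members and the 3 linked lists, over all 12 libraries (black) and without control replicate 5 (orange), with filled points for an adjusted p below 0.05. Nfatc2 is the 1 filled black point, at 0.65, and Trpm4, Cnnm2, Orai3, Calm3, Camk2g and Nfatc2 are filled without control replicate 5.

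Across 29 alternative settings, Piezo1, Trpm4 and Trpv4 kept a negative log2 fold change, and Trpc1 and Trpm7 kept a positive one, in each of the 29. The settings refit the same 12 libraries or subsets of them, so a kept sign is not a repeated measurement. The log2 fold change of Trpm4 ranged from -0.56 to -0.04 and passed in 6 settings, and that of Trpc1 ranged from 0.22 to 0.49 and passed in 2. Piezo1, with -0.41 to -0.09, Trpm7, with 0.02 to 0.13, and Trpv4, with -0.35 to -0.06, passed in 0. Piezo2, Trpv2 and Pkd2 also passed in 0, and each took both signs.

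**Figure D5:**
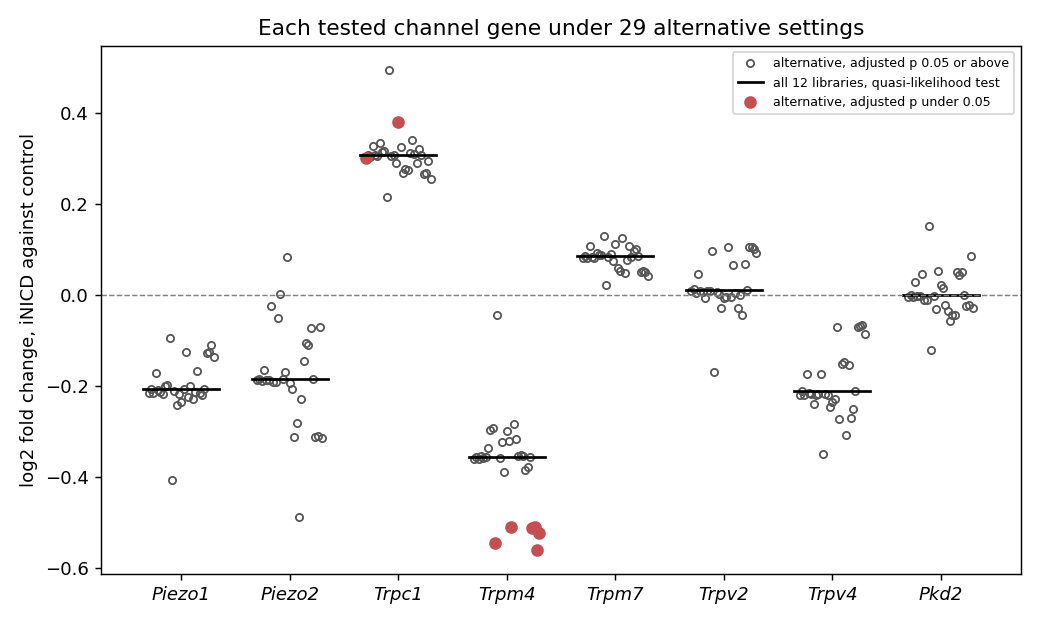
Log2 fold change of each tested channel gene, iNICD against control, under 29 alternative settings (1 point each, red where the adjusted p is below 0.05), with a black bar for the test over all 12 libraries. The 6 red points of Trpm4 lie between -0.56 and -0.51, and Trpc1 has 2 red points, at 0.30 and 0.38.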

How the data were processed

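RNA was sequenced from 12 left atria, 1 library per mouse. The authors removed ribosomal RNA, sequenced reads described as stranded and deposited unnormalized whole read counts for each gene name. Per the labels, the submitters' processing notes name cutadapt, STAR 2.4.2a, Subread featureCounts and mm10. The study's methods name 2 other routes, STAR with Subread and TopHat2 with HTSeq. Which of these made the deposited table, and with what strand setting, is not given in the sources used here. The deposited table also gives a length in bases per gene name.

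Groups, replicate numbers and sex came from the labels. Genes that exceeded 1 CPM in 6 or more libraries entered the test in edgeR 4.0.16 (R 4.3.3) by its quasi-likelihood test, with TMM scaling, two-sided and Benjamini-Hochberg adjusted. The F statistic gave SE and 95% intervals. CPM were normalized to TMM-scaled totals. Positions came from GENCODE M21 on GRCm38, and promoter windows from RefSeq. Scripts were tested on simulated data. P values measure the spread between these mice. Libraries within a group differed by more than sampling noise, with a chi-square per gene of 16.8 or more.

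The members and lists were chosen with earlier results of these data known. In each list, every gene past the threshold and up to 4 more of highest level were named, except 2 genes not reported here. Genes of like pattern were to be named for members past the threshold, and there were none. Alternatives were DESeq2 1.42.0, the edgeR exact test, other scalings and filters, sex, replicate block, 1 sex alone, no mitochondrial genes and each library left out. Robust dispersions and combinations without control replicate 5 were added after seeing the data.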

Additional observations from a re-analysis of the deposited data

Results flagged for a closer look

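In 3 of the 18 groups of 6 libraries (9 channel genes in 2 groups), a library stood farther from the rest than Dixon's test allows at the 95% level, where chance gives about 1 in 20, or 0.9 of 18. All were control replicate 5, which lay 2-fold or more from the rest of its group for 13.2% of tested genes. The 0.9 assumes independent groups, while the 18 groups come from the same 12 libraries. The share of all tested genes flagged this way was not computed. Piezo1 was 98.5 normalized CPM there and 67.5 to 77.2 in the other 5 controls. Trpv2 was 5.23 there and 3.54 to 3.84 in the others. Trpv4 was 10.3 there and 5.50 to 6.77 in the others. The same library was the lowest control for Piezo2, Trpc1, Trpm4 and Trpm7, without passing that test.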

How the results depend on the processing

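A member was called higher in 2 alternatives, by DESeq2 (1) and among the libraries left out in turn (0 to 1, Trpc1 without control replicate 3). A member was called lower, Trpm4 each time, among the females (1), without control replicate 5 (0 to 1 over the libraries left out) and without it under DESeq2, the exact test, sex in the fit and total count scaling (1 each). Genes called higher, 377, became 615 under DESeq2, 8 in males, 273 to 495 with a library left out, and without control replicate 5 767 under DESeq2 and 622 under the exact test. Genes called lower, 181, became 444 under DESeq2, 279 under the exact test, 0 in males, 92 to 304 with a library left out, and without control replicate 5 557 under DESeq2, 375 under the exact test, 304 with sex in the fit and 318 with total counts. In males, with 2 controls, fewer samples entered. The mechanical channel and partner list, 0 called, gave 1 under DESeq2, 0 to 2 with a library left out, and without control replicate 5 2 under DESeq2, the exact test and total counts and 1 with sex in the fit. The calcium effector list, 1 called, gave 2 under DESeq2 and the exact test, 3 with total counts, 0 in females, in males and under either replicate block, 0 to 3 with a library left out, and without control replicate 5 5 under DESeq2, 4 under the exact test, 2 with sex in the fit and 3 with total counts. Nfatc2 passed in 17 of 29 alternatives. The cause was not tested.

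Signs turned for 3 members. Piezo2, at -0.185, was 0.00363 in males and -0.487 to 0.083 with a library left out, above 0 without control replicate 2. Trpv2, at 0.0125, was -0.00663 with sex in the fit, -0.168 in males, and -0.0428 to 0.106 with a library left out. Pkd2, at 0.00151, was -0.00378 under DESeq2, -0.00371 with RLE factors, -0.00101 with filterByExpr, -0.00234 with no filter, -0.12 in males, -0.00116 without mitochondrial genes, -0.0559 to 0.0529 with a library left out, and without control replicate 5 -0.0235 under DESeq2, -0.0219 under the exact test and -0.0284 with total counts. The sex differences of Piezo1, Trpm4, Trpm7 and Trpv4 turned from 0.0771, -0.0818, -0.0352 and 0.193 to -0.0495, 0.169, 0.00779 and -0.011 without control replicate 5.

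Same-numbered libraries of the 2 groups deviated together with correlations of -0.153 to 0.372 by title number and -0.107 to 0.372 by description number, so the numbers were not taken as pairs. With the replicate block, 0 members were called and Pkd2 was -0.00944 by title and -0.00945 by description number. Depth limits Trpc6, with at most 15 reads.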
